A study of Mus musculus with 13 samples.

Results

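Trimethylation of lysine 27 of histone H3 (H3K27me3) was examined at the long autosomal domains that wild-type (WT) and double knockout (DKO) mouse embryonic stem cells had in common. A domain was any region of the deposited union list that lay on chromosomes 1 to 19 without 6 and 11, was 10000 bp or longer, and stood in the authors' list of regions shared by both genotypes. These criteria gave 411 of the 57909 union regions, 6.83 Mb in all, out of 15732 shared regions on the same 17 autosomes. No region called in 1 genotype alone reached this length on these chromosomes. The choice used length and the authors' calls and took no values from the count tables compared here. The regions were called on the mark, so the choice is not independent of its signal. The way they were called or pooled is not stated in the labels. Because a domain had to be called in both genotypes, one lost altogether from the DKO cells could not be a member.

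The assay was chromatin immunoprecipitation sequencing of male CAST/B6 embryonic stem cells that carry a recombination cassette (RMCE) at Rosa26. Controls and knockouts alike received doxycycline for 3 days before fixation with 0.6% formaldehyde. The H3K27me3 groups held 5 WT libraries and 4 libraries of SAFB and SAFB2 double knockout cells, and the total H3 groups held 2 libraries of each genotype. The knockouts represent 2 clones: clone 4 gave a single H3K27me3 library (DKO replicate 1) and clone 13 gave all other DKO libraries. Among the WT H3K27me3 libraries, replicates 1, 4 and 5 share a name stem (rmce) that replicates 2 and 3 lack. What sets these libraries apart is not stated. The words Old (WT replicate 4, DKO replicate 3) and New (WT replicate 5, DKO replicate 4) stand in the labels of 4 libraries, with no stated meaning, and were treated as a library set. All libraries carry the tag b6 in their labels, also with no stated meaning. Whether the counts cover both alleles of this CAST/B6 line is therefore not known. The labels do not state whether replicates were grown apart, and the p-values below therefore describe library-to-library spread, which can be technical. In bulk chromatin, fewer cells with the mark and less mark per cell cannot be told apart. Nor can relative read counts tell less mark apart from weaker enrichment in the immunoprecipitation.

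Polycomb repressive complex 2 (PRC2) writes H3K27me3, and Polycomb repressive complex 1 reads the mark and compacts chromatin. In embryonic stem cells the mark covers promoters of genes for transcription factors and signalling molecules that are silent until a lineage is chosen. Where such genes are clustered or regulated by wide flanking sequence, the mark spreads into long domains, of which the Hox clusters are the textbook case. SAFB and SAFB2 are closely related nuclear proteins that bind RNA and chromatin.

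Start-site sequences show the kind of DNA these domains hold, since CpG-rich promoters are the usual seats of Polycomb complexes. Windows of 300 bases (250 before and 50 after a RefSeq start site, assembly GRCm38.p6) were matched by symbol. They are shown for the domain of the largest fall (Prdm12, chr2:31639787-31640086, plus strand), another of the largest falls (Nkx2-1, chr12:56536859-56537158, minus strand) and the domain of the largest rise (Fgfr2, chr7:130266759-130267058, minus strand). Capitals mark the dinucleotide CG, which reads the same on both strands.
Prdm12: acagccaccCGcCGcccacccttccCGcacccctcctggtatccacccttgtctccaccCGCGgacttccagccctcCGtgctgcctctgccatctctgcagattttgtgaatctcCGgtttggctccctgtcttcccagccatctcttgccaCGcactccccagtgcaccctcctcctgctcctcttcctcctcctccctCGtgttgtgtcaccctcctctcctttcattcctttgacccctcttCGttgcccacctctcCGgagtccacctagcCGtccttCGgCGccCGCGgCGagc
Nkx2-1: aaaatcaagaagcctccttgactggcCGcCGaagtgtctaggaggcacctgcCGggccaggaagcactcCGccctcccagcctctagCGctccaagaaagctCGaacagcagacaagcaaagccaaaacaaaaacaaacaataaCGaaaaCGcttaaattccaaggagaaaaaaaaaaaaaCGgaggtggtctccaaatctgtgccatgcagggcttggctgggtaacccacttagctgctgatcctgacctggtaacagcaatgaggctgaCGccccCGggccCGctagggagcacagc
Fgfr2: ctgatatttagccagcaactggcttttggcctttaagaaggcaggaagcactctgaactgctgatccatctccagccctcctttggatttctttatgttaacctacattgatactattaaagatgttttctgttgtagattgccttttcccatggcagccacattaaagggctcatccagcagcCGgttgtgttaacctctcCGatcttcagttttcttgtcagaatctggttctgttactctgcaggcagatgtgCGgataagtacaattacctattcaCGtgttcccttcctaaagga
The windows held 17 CpG in Prdm12, 12 in Nkx2-1 and 4 in Fgfr2. These 3 were chosen by the size of their domains' change and do not stand for the rest. Of the 27242 RefSeq windows on the same autosomes, 34.9% held 15 or more CpG. By position, 517 windows lay inside 278 of the 411 domains, with a median of 16 CpG and 56.3% holding 15 or more, against a median of 7 and 34.5% for the windows outside. The share was 57.3% for the 307 windows in domains that fell in the DKO cells and 55.3% for the 206 in domains not called, both with a median of 16. Windows of a gene can overlap and were counted separately. The 307 belonged to 232 symbols in 142 domains and the 206 to 166 symbols in 133 domains. The 3 domains that rose held only 4 windows, with 4 to 35 CpG and a median of 5.5. Domains without a window are not covered by these values, and only 363 of the 726 genes matched a window by symbol.

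The domains ran from 10.01 kb to 124.1 kb with a median of 14.4 kb. There were 225 under 15 kb, 89 of 20 kb or more and 19 of 30 kb or more. The longest covered the Hoxc cluster from Hoxc13 towards Hoxc4 (chr15:102921117-103045228). The next was the 69.4 kb of Evx2 and Hoxd13 to Hoxd8 (chr2:74646526-74715895), followed by domains at Zic1 and Zic4 (43.9 kb), Nr2f1 (40.2 kb), the protocadherin gamma genes from Pcdhga8 to Pcdhga12 (39.8 kb), Hoxd4 and Hoxd3 (38.8 kb), Pax3 (36.7 kb), Hand2 (36.5 kb) and Pou3f3 (36.1 kb). Of these, all but the protocadherin domain lay at genes of developmental transcription factors. Promoter rows of the authors' table, which span a start site, overlapped 376 of the 411 domains, and 35 had none. These rows belonged to 726 genes, or 1.62% of the 44927 genes with a row on the same chromosomes.

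The gene lists used here hold selected members of each family, and were chosen with earlier results of these data known. The shares below are therefore of the lists, not of whole families. On some lists most genes were inside domains. They took in 17 of 18 Hox genes on these autosomes (94.4%), 84 of 103 other homeobox genes (81.6%), 8 of 11 T-box genes (72.7%), 26 of 41 zinc finger factors (63.4%) and 15 of 24 forkhead genes (62.5%). Shares were lower for Sox genes (4 of 12), basic helix-loop-helix genes (11 of 41), Wnt pathway genes (9 of 36), fibroblast growth factors and receptor kinases (9 of 38), axon guidance genes (3 of 46) and ion channels and receptors (5 of 86). No housekeeping gene of 15 was in one. Among Polycomb genes 1 of 18 overlapped a domain with its promoter row, Bmi1, a subunit of Polycomb repressive complex 1. As a check of the cell type, the pluripotency genes' highest promoter rows had a median of 9.29 CPM (counts scaled to library size), against 267 CPM for Hox genes and 118 CPM for other homeobox genes. Fibroblast markers were also low, at 6.79 CPM, so these promoter levels do not separate stem cells from fibroblasts. The promoter rows of Safb and Safb2 held 4, 0 and 3 counts over 9 libraries and cannot check the knockout. Region counts per library ran from 1818647 to 3134799 for H3K27me3 and from 525847 to 736566 for total H3, and values below are CPM of region counts after scaling between libraries.

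The mark was denser in the domains than in shorter shared regions. The median WT level was 26.6 CPM per kb in the domains, 18.7 in the 1450 shared regions of 5 to 10 kb, 10.2 in the 9141 regions of 1 to 5 kb and 9.34 in the 4730 regions under 1 kb. Regions were called on the mark, so this order of density describes the calls. Over the 411 domains WT means ran from 10.2 to 70.7 CPM per kb, with quartiles of 21.0 and 32.4, and longer domains tended to be denser (Spearman's rho 0.358 over domains). Total H3 had a median of 16.3 CPM per kb in the domains and 16.9 in shared regions of 5 to 10 kb. The ratio of H3K27me3 to H3 level had a median of 1.67 in WT and ran from 0.573 to 3.14, and in DKO cells the median was 1.47.

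H3K27me3 fell at 187 of the 411 domains in DKO cells, which is 45.5%, against 1.88% of the 40418 regions tested across the genome. It rose at 3 domains, or 0.73%, against 2.16% of all regions. The median log2 fold change of DKO over WT was -0.19 over the domains and -0.015 over all regions, and 358 domains were on the lower side. Among the fallen domains the decrease ran from 12.2% to 26.4%, with a median of 18.6%. These calls come from edgeR's quasi-likelihood test with a Benjamini-Hochberg adjusted p under 0.05 over all regions, and all 411 domains passed its filter on low counts. In 210 domains every DKO library was below every WT library (51.1%, against 3.4% of all regions), and in none was every DKO library above every WT library (3.36% of all regions). When each library was instead corrected for its own trend of signal with a region's total CPM (a loess offset), 42 domains fell, 19 rose and the median was -0.034. Over all regions the median with this offset was -0.007. Calls over all regions with this offset are not given here, so the 42 and 19 stand without a background share. All 42 were among the 187. That offset removes, by construction, any change that follows a region's total CPM across all regions. Total CPM is not divided by length, so a domain's length as well as its CPM per kb sets how far it is corrected. Calls kept or lost with the offset are therefore not a comparison at equal length.

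Within the libraries that carry neither Old nor New, 84 domains fell, all among the 187, 0 rose and the median was -0.19. Within those labelled Old or New, 80 fell, 79 of them among the 187, 2 rose and the median was -0.19. Over all regions the medians were -0.011 with neither and -0.005 with Old or New, and calls over all regions are not given here. Without DKO replicate 1, the only library of clone 4, 185 domains fell with a median of -0.21. Scaling by library totals gave 143 falls and a median of -0.12, where the median over all regions was 0.052. Calls over all regions with this scaling are not given here.

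The share of each library's region counts that lay in the domains, which sets each library against its own total, was also lower in DKO cells. In the WT libraries, replicates 1 to 5, it was 18.8%, 18.8%, 18.6%, 18.4% and 18.4%, and in the DKO libraries, replicates 1 to 4, it was 17.1%, 16.4%, 16.2% and 16.7%. The lowest WT library stood above the highest DKO library. The means were 18.6 ± 0.215% (SD, n = 5) and 16.6 ± 0.398% (SD, n = 4), a difference of -1.98 percentage points with a two-sided exact permutation p = 0.0159, which is the smallest that the 126 groupings of these libraries can give. For total H3 the share was 8.31% and 8.34% in WT and 8.14% and 8.23% in DKO libraries, means of 8.33% and 8.19%. The share of H3K27me3 was thus 2.23 times that of H3 in WT and 2.03 times in DKO cells.

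**Figure D1:**
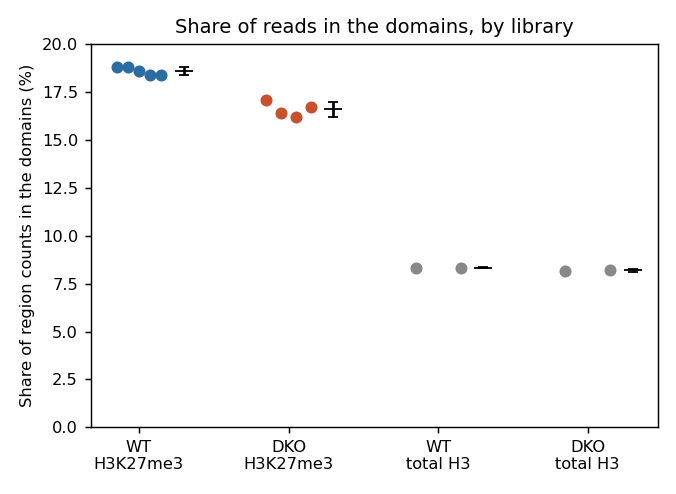
Share of region counts that fell in the 411 domains (vertical axis, percent) for each library of 4 groups (horizontal axis); points are libraries, and the bar beside them is the mean with 1 SD. WT H3K27me3 libraries lie between 18.4% and 18.8%, DKO libraries between 16.2% and 17.1%, and total H3 libraries between 8.14% and 8.34%.

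The domains were then set against the shared regions most like them, those of 5 to 10 kb on the same autosomes. The log2 ratio of domain level to level in those regions was 0.44, 0.53, 0.54, 0.53 and 0.50 in WT replicates 1 to 5 and 0.39, 0.35, 0.40 and 0.44 in DKO replicates 1 to 4. DKO replicate 4 and WT replicate 1 were nearly level at 0.435 and 0.438, with no overlap between the groups. The means were 0.506 ± 0.0413 (SD, n = 5) and 0.393 ± 0.0349 (SD, n = 4), and the difference of -0.11 had an exact permutation p = 0.0159, also 0.0159 after Benjamini-Hochberg adjustment over the 2 such tests. So the level in the domains, relative to the next shorter class, was lower in the DKO libraries. Whether this came from less mark or from weaker enrichment in the immunoprecipitation was not tested. By edgeR, 117 of those 1450 regions fell and 21 rose, with a median of -0.079. The other classes had medians of 0.025 (64 fell and 100 rose of 9141 regions of 1 to 5 kb) and -0.021 (15 fell and 1 rose of 4461 tested regions under 1 kb). Of the regions that met all criteria but chromosome, 25 of 78 on chromosome 6 fell with a median of -0.20, while on chromosome 11 there were 2 falls and 11 rises of 40 with a median of 0.18. The median was below 0 on each of the 17 autosomes, from -0.29 on chromosome 14 to -0.11 on chromosome 17.

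Longer and denser domains changed more. From 10 to 12 kb 23.6% of 127 domains fell with a median of -0.14, from 12 to 15 kb 32.7% of 98 (-0.15), from 15 to 20 kb 56.7% of 97 (-0.22), from 20 to 30 kb 78.6% of 70 (-0.29), and at 30 kb or more 78.9% of 19 (-0.29). In 4 classes of nearly equal size by mean level the order was steeper. The class of lowest level, up to 20.3 CPM per kb, had a median of -0.026 with 3 falls and 3 rises of 103, and the next classes had medians of -0.17, -0.23 and -0.30 with 38 of 103, 63 of 102 and 83 of 103 fallen. With the loess offset the medians by level were 0.086, -0.033, -0.061 and -0.096, so the lowest class turned positive, and those by length were -0.025, -0.013, -0.039, -0.072 and -0.06. Over the 411 domains Spearman's rho of the fold change was -0.675 with level and -0.367 with length; the domains share the same libraries, so these are descriptions. Below the median level, 15 of 138 domains under 15 kb and 26 of 67 longer ones fell, and above it 47 of 87 and 99 of 119. Longer and denser domains also hold more reads, and standard errors of the log2 fold change ran from 0.040 to 0.091, so calls come more easily there, while the medians do not depend on a threshold. Within each library the log2 ratio of counts in domains of 20 kb or more to those in shorter domains was -0.50 to -0.43 in WT and -0.58 to -0.51 in DKO libraries, with all 4 DKO libraries below the 5 WT libraries. The order of levels was largely kept, with a rho of 0.969 between WT and DKO means.

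**Figure D2:**
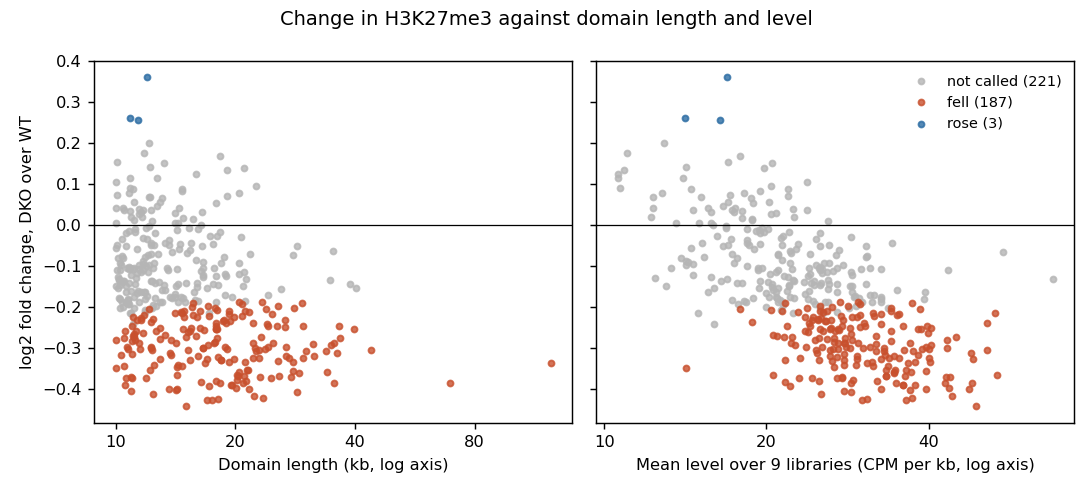
log2 fold change of H3K27me3, DKO over WT (vertical axis), against domain length in kb (left) and mean level over 9 libraries in CPM per kb (right), both on log axes; each point is 1 of 411 domains, coloured by its edgeR call. The 3 domains that rose are short and of low level, and the 187 that fell extend from short domains to the longest, with few below 20 CPM per kb.

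No change in total H3 was called. By edgeR 0 domains passed, against 0.0158% of 18938 regions lower and 0.00528% higher. The median log2 fold change of H3 was -0.02 over the domains (0.002 when libraries were scaled off chromosomes 6 and 11), and 18 of 411 had an unadjusted p under 0.05; DESeq2 also called 0. The change in H3K27me3 beyond the change in H3 had a median of -0.18 with 338 domains on the lower side. No domain passed that test (edgeR interaction, 2 H3 libraries a group), where 0.00184% of 54290 regions were lower and 0.0% higher, and 99 domains had an unadjusted p under 0.05. The change in the mark was thus not shown to differ from that in H3 at any single domain.

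Homeobox genes outside the Hox clusters made up the largest group, and H3K27me3 fell at 65 of their 82 domains, with a median of -0.29 and all 82 on the lower side. With the loess offset 19 fell and the median was -0.083. Otp encodes a homeodomain factor of hypothalamic neurons. Its domain (chr13:94866753-94890189) measured 39.4, 44.7, 42.5, 42.7 and 40.4 CPM per kb in WT replicates 1 to 5 and 32.2, 29.9, 30.1 and 32.9 in DKO replicates 1 to 4. The groups did not overlap, and the log2 fold change was -0.42 (SE 0.055, edgeR adjusted p = 6.07e-10). Nkx2-1, a regulator of lung, thyroid and forebrain development, measured 41.5, 44.0, 40.2, 39.4 and 40.0 CPM per kb in WT and 33.6, 29.8, 28.7 and 30 in DKO libraries, again with no overlap (-0.43, SE 0.059, edgeR adjusted p = 5.54e-09). Others among the 10 largest falls were the domains of Lhx4 (-0.42), a LIM-homeobox gene of the pituitary, Hmx3 and Hmx2 (-0.42), needed in the inner ear, Pou3f2 (-0.41), a neural POU factor, Pax1 (-0.41), a gene of the sclerotome, and Nkx6-1 (-0.40), of pancreatic beta cells and the ventral neural tube. For these 5 every DKO library was below every WT library and edgeR adjusted p ran from 2.97e-10 to 6.16e-06. With the loess offset these 7 homeobox domains kept their calls, with log2 fold changes between -0.27 and -0.19.

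Zinc finger factors fell at 20 of 26 domains (median -0.27), and their list held the largest fall of all. The loess offset gave 4 falls and 1 rise (median -0.096). Prdm12 (chr2:31630181-31645235), whose start-site window is printed above, is a PR-domain factor of pain-sensing neurons. Its domain measured 56.7, 61.8, 50.0, 54.9 and 53.6 CPM per kb in WT and 44.5, 40.2, 35.8 and 42.5 in DKO libraries. No libraries overlapped, and the log2 fold change was -0.44 (SE 0.058, edgeR adjusted p = 7.44e-10), or -0.24 with the loess offset (edgeR adjusted p = 0.00069). Osr2, of palate and tooth development, was close behind (-0.43, edgeR adjusted p = 2.86e-08). Zic1 and Zic4, neighbouring genes of cerebellar development, share a domain that measured 27, 26.7, 26.9, 27.2 and 27.1 CPM per kb in WT and 21.4, 21.2, 21.2 and 23.5 in DKO libraries. The WT libraries lay close together and above all DKO libraries (-0.31, SE 0.052, edgeR adjusted p = 6.16e-06). With the loess offset it was not called (-0.066, edgeR adjusted p = 0.41).

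The 2 longest Hox domains fell, while the other 2 did not pass. The Evx2 to Hoxd8 domain measured 48.1, 48.8, 46.2, 48.7 and 48.1 CPM per kb in WT and 38.2, 36.5, 34.8 and 37.5 in DKO libraries (-0.39, SE 0.043, edgeR adjusted p = 1.98e-13). The Hoxd4 and Hoxd3 domain, 2.74 kb further on, measured 29.8, 27.4, 28.7, 27.2 and 28.1 in WT and 26.0, 24.3, 25.5 and 26.4 in DKO libraries (-0.145, SE 0.052, edgeR adjusted p = 0.091). In both, all DKO libraries were below all WT libraries, by a larger margin in the first; the difference between the 2 domains was not tested. The Hoxc domain measured 41.3, 40.1, 41.1, 39.9 and 39.8 CPM per kb in WT and 33.6, 31.4, 30.3 and 32.8 in DKO libraries (-0.34, SE 0.040, edgeR adjusted p = 5.19e-12). With the loess offset neither of these longest domains was called, with -0.062 for Evx2 to Hoxd8 and 0.023 for Hoxc. For the Hoxc domain that offset turned the sign.

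Forkhead genes had the highest share among the larger lists, with 13 of 14 domains fallen and a median of -0.33, or 4 fallen and -0.13 with the loess offset. Foxd3, active in neural crest and also in embryonic stem cells, fell by 0.41 on the log2 scale (SE 0.069, edgeR adjusted p = 3.81e-06), and Foxf1, of lung and gut mesenchyme, by 0.31 (SE 0.051, edgeR adjusted p = 4.73e-06). Foxd3 kept its call with the loess offset (-0.27) and Foxf1 did not (-0.06, edgeR adjusted p = 0.441). All 4 Sox domains (Sox1, Sox14, Sox17 and Sox21) fell, with a median of -0.30, and none was called with the loess offset. T-box genes fell at 5 of 8 domains and basic helix-loop-helix genes at 7 of 11, and with the loess offset at 1 and 0. Tbx3, a T-box gene that stem cells also use, was the 1 pluripotency gene inside a domain. It measured 23.9, 27.3, 31.1, 27 and 26.0 CPM per kb in WT and 22.6, 19.4, 20.6 and 20.8 in DKO libraries, with no overlap (-0.37, SE 0.060, edgeR adjusted p = 1.28e-06). Other factors, a list of nuclear receptors, Ebf, Runx and similar genes, fell at 16 of 22 domains (median -0.29), among them Ebf3 (-0.39, edgeR adjusted p = 5.54e-09) and Nfix (-0.36, edgeR adjusted p = 3.92e-08). The loess offset left 3 falls among the 22, Ebf3 with its call (-0.157) and Nfix without (-0.118). At Nr2f1, a nuclear receptor gene of the cortex with one of the longest domains, values were 20.2, 20.8, 20.6, 19.8 and 20.3 CPM per kb in WT and 18.7, 18.0, 17.7 and 18.8 in DKO libraries. These did not overlap either, but the change of -0.15 did not pass (SE 0.055, edgeR adjusted p = 0.091).

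Signalling genes held fewer domains. On the Wnt pathway list, whose members here are mostly ligands, 6 of 9 domains fell, including Wnt1 (-0.30, SE 0.053, edgeR adjusted p = 1.62e-05). With library totals 3 of the 9 fell, and with the loess offset 0 fell and 1 rose, with Wnt1 at -0.076 (edgeR adjusted p = 0.335). Shh, the hedgehog ligand of limb and neural tube, measured 52.5, 59.1, 50.7, 54.3 and 50.1 CPM per kb in WT and 41.9, 39.6, 39.6 and 40.5 in DKO libraries. The groups were well apart, with a log2 fold change of -0.40 (SE 0.058, edgeR adjusted p = 3.36e-08), and its H3K27me3 to H3 ratio of 3.14 in WT was the highest of all domains. The Notch ligand Dll4 also fell (-0.31, edgeR adjusted p = 5.63e-05), with 2 of 4 hedgehog and Notch domains in all. Shh kept its call with the loess offset (-0.20) and Dll4 did not (-0.116). Of the fibroblast growth factor and receptor kinase domains 3 of 9 fell, Fgf9 among them (-0.36, edgeR adjusted p = 2.03e-05), and 1 rose, Fgfr2. Of 3 bone morphogenetic protein domains only Gdf6 fell (-0.28, edgeR adjusted p = 0.0095). Its call was lost without DKO replicate 3, with the loess offset (edgeR adjusted p = 0.161) and in both library sets (edgeR adjusted p = 0.479 and 0.0634). None passed among 2 retinoic acid, 4 axon guidance and 5 channel and receptor domains, whose medians were -0.11, -0.105 and -0.097. With the loess offset the medians of the last 4 lists turned positive, to 0.029, 0.035, 0.015 and 0.034. The domain that overlaps promoter rows of Bmi1 and Spag6 fell too. The start-site windows wholly inside it were of Gm46725 and Spag6, not Bmi1. It measured 34.6, 39.7, 36.0, 37.9 and 36.9 CPM per kb in WT and 30.2, 26.5, 27.5 and 30.5 in DKO libraries (-0.37, SE 0.055, edgeR adjusted p = 1.19e-07). The loess offset gave -0.151 and ended the call (edgeR adjusted p = 0.0513).

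In all, 211 domains held a gene of the developmental and signalling lists, and 147 of them fell (69.7%, median -0.26). Of domains with other genes alone 38 of 165 fell (23.0%, median -0.12), and of those with no promoter row 2 of 35 (5.71%, median -0.072). The developmental and signalling lists took in cell cycle, adhesion, channel and axon guidance genes. Bmi1 was not on them, so its domain counts among the 165. The groups differed in level and length too, with median WT levels of 30.1, 23.0 and 16.7 CPM per kb and median lengths of 17.1, 12.6 and 11.8 kb. Within the 4 classes by level, from the lowest to the highest, 1 of 17, 24 of 48, 52 of 71 and 70 of 75 domains with a listed gene fell. With other genes alone these were 1 of 60, 13 of 52, 11 of 26 and 13 of 27. The difference between the groups was not tested. Under the loess offset 35 of the 211 fell and 4 rose, with a median of -0.071.

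**Figure D3:**
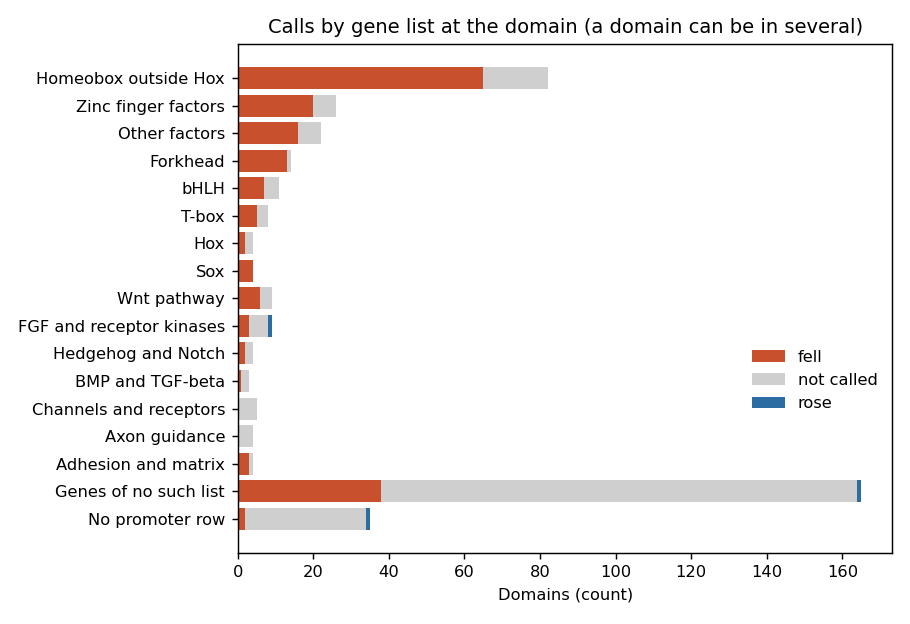
Number of domains (horizontal axis) by edgeR call for each gene list (vertical axis); a domain that holds genes of several lists is counted in each. Homeobox genes outside the Hox clusters have 65 of 82 domains fallen, and domains with genes of no such list 38 of 165.

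The 3 domains that rose were short and low. Fgfr2, a fibroblast growth factor receptor (chr7:130258462-130270477), measured 18.2, 14.5, 14.8, 13.2 and 14.7 CPM per kb in WT and 18.1, 20.7, 20.9 and 17.5 in DKO libraries. WT replicate 1 overlapped the DKO range and the other WT libraries were below it (0.36, SE 0.078, edgeR adjusted p = 0.00095). Prtg, which encodes the cell-surface protein protogenin, measured 18.8, 13.0, 16.7, 12.8 and 14.2 in WT and 18.6, 17.7, 18.4 and 17.5 in DKO libraries. WT replicate 1 was the highest of all 9 (0.26, SE 0.080, edgeR adjusted p = 0.043). A domain with no promoter row (chr2:167594343-167605187) measured 14.9, 12.2, 13.8, 10.9 and 13.1 in WT and 16.7, 16.0, 15.4 and 14.2 in DKO libraries, with DKO replicate 4 inside the WT range (0.26, SE 0.084, edgeR adjusted p = 0.0496). Only Fgfr2 kept its call without each library in turn. Prtg lost it without 7 of the 9 libraries and the third domain without 6. Within the libraries labelled neither Old nor New none of the 3 was called, with Fgfr2 at 0.29 (edgeR adjusted p = 0.34). Within those labelled Old or New, Fgfr2 (0.47, edgeR adjusted p = 0.0135) and Prtg (0.416, edgeR adjusted p = 0.0293) were called. The third domain was not (0.307, edgeR adjusted p = 0.141). With the loess offset all 3 were called, at 0.468, 0.359 and 0.346, among the 19 domains that rose with it.

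**Figure D4:**
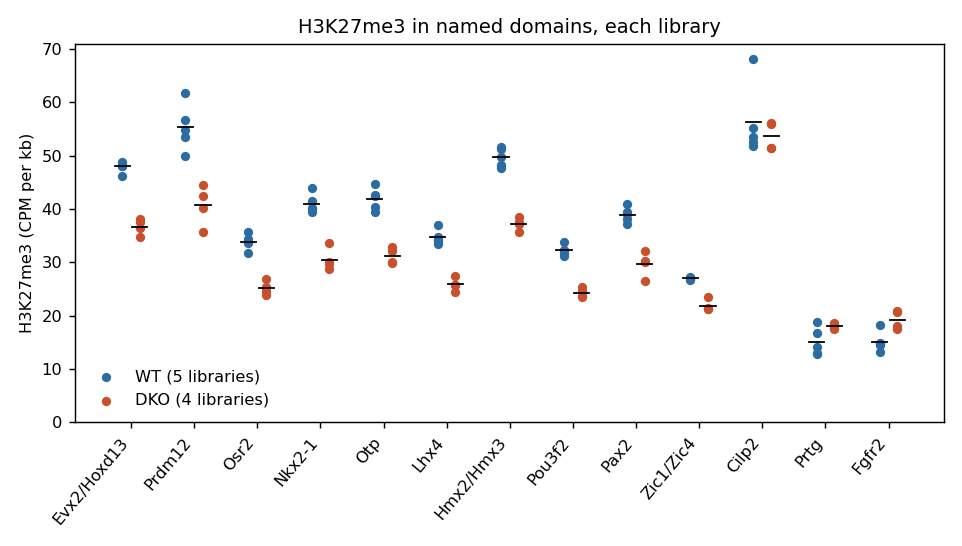
H3K27me3 in CPM per kb (vertical axis) for 13 domains named by their genes (horizontal axis); points are the 5 WT and 4 DKO libraries, and short lines are group means. WT and DKO points are apart from Evx2/Hoxd13 to Zic1/Zic4, and overlap for Cilp2, Prtg and Fgfr2.

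The domain at Cilp2, a gene of cartilage and among the highest in level, measured 68.2, 51.8, 53.5, 52.6 and 55.2 in WT and 51.4, 55.9, 56.2 and 51.4 in DKO libraries, where the groups overlapped (-0.067, SE 0.057, edgeR adjusted p = 0.53). It is on chromosome 8, as were 5 of the 10 domains of highest level. Total H3 was high there as well: its median over the 26 domains of chromosome 8 was 24.3 CPM per kb, 1.51 times the 16.1 of the other domains, and 18 of the 20 domains with the most H3 were on it. The medians in the 4 H3 libraries were 24.0 and 24.3 in WT and 23.7 and 24.2 in DKO, while WT medians of the other 16 chromosomes ran from 14.8 to 17.8. Relative to H3, chromosome 8 had a median H3K27me3 ratio of 1.46, inside the 1.27 to 1.96 of the others, and 1 of the 10 highest ratios (Sox1). Its median log2 fold change between genotypes was -0.165. At the other end of the scale, the domain at Gm29395 and Slc9a9 measured 9.03 to 11.9 CPM per kb in WT and 10.8 to 11.7 in DKO libraries, with a ratio to H3 of 0.725 in WT. The 5 domains of lowest level had log2 fold changes from 0.090 to 0.18 and none passed.

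Neighbouring domains did not always share a call. There were 49 pairs at most 50 kb apart, of which 10 had both domains fallen, 20 had 1 and 19 had none. The median absolute difference in log2 fold change was 0.10 within these pairs and 0.14 within the 345 successive pairs that lay farther apart. Beside the fallen Prdm12 domain, 0.48 kb away, lay one with no promoter row at -0.21 that did not pass. Wnt10b and Wnt1, 3.74 kb apart, both fell (-0.22 and -0.30), though neither was called with the loess offset. Shorter regions called in 1 genotype alone also lay close by. Within 5 kb, 189 domains (46.0%) had a DKO-specific region and 89 (21.7%) a WT-specific one, and these were 2.58% of the 10707 DKO-specific and 3.18% of the 3077 WT-specific regions on the same autosomes.

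The domains closest to the length threshold are given without a test. Just inside lay Wnt6 (10010 bp, 29.9 ± 1.94 CPM per kb in WT and 27 ± 3.48 in DKO, SD, n = 5 and 4), a domain without a promoter row (10014 bp, 12.2 and 12.5) and Shisal1 (10015 bp, 13.6 and 13.6). Just outside lay the regions of Car15 (9995 bp, 24.3 and 22.4) and Cdc20b (9958 bp, 20.4 and 17.3).

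Start sites inside the domains moved in the same direction, with fewer calls. Of the 1099 promoter rows that overlapped a domain 695 passed the filter on low counts, and 31 of these fell (4.46%, against 0.19% of 32647 rows tested) while 1 rose (0.438% of all rows). All 31 lay in domains that had themselves fallen, with which they share reads. The median log2 fold change was -0.16 over the 695 rows and -0.013 over all rows. A read on several overlapping rows was not counted, and 372 of the 695 rows overlapped another, so their levels are lower bounds. The Prdm12 row had 335 ± 41.1 CPM in WT (SD, n = 5) and 228 ± 24.7 CPM in DKO (SD, n = 4), a log2 fold change of -0.55 (SE 0.106, edgeR adjusted p = 0.00097). The Nkx2-1 row had 214 ± 19.5 CPM and 144 ± 8.69 CPM (-0.57, SE 0.116, edgeR adjusted p = 0.0024). Both kept their calls without each library in turn. Larger falls came at rows of lower level, Sfta3-ps beside Nkx2-1 (-1.30), C130021I20Rik (-0.77), Uncx (-0.64), Nrn1 (-0.62) and Gm20649 (-0.58), each of which lost its call without at least 1 library. The row that rose was Khdrbs1, which encodes the RNA-binding protein Sam68, with 127, 90.7, 84.3, 59.7 and 82.5 CPM in WT and 144, 151, 130 and 113 CPM in DKO libraries. WT replicate 1 overlapped the DKO range, and the call (0.61, SE 0.134, edgeR adjusted p = 0.0082) was lost without DKO replicate 2 or WT replicate 4. Its whole domain was not called (0.087, edgeR adjusted p = 0.50). The number of fallen rows depended on the libraries used. Leaving out 1 WT library gave 25 for replicate 1, 5 for replicate 2, 13 for replicate 3, 48 for replicate 4 and 14 for replicate 5. Leaving out 1 DKO library gave 20, 7, 10 and 15 for replicates 1 to 4.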

How the data were processed

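The data were read counts per region and per promoter from 9 H3K27me3 and 4 total H3 libraries. The counts were deposited by the authors as unnormalized whole numbers. The promoter counts were made with featureCounts, per the file headers, and the submitters' processing notes name Bowtie2, MACS2, Subread, bedtools, featureCounts and the mouse build mm10, with no versions or roles. Lists of shared and genotype-specific regions are the authors' own. The domains and gene lists here were chosen with earlier results of these data known.

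Region counts were tested over all regions with edgeR 4.0.16 (R 4.3.3, limma 3.58.1): filterByExpr (minimum count 10, minimum total 15), TMM factors and the quasi-likelihood test, with Benjamini-Hochberg adjustment at 0.05. H3K27me3 and H3 were fitted apart, and once together with an interaction term. The fits were checked on simulated data. CPM use TMM-scaled region totals. Per-library shares and ratios were compared with exact two-sided permutation tests (Python 3.11.15, scipy 1.17.1, numpy 2.4.6, pandas 2.3.3), and plots used matplotlib 3.10.9. Standard errors of a domain's log2 fold change, which include the spread between libraries, were 0.040 to 0.091.

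Domains were named by overlapping promoter rows. Named are the 10 longest, the 10 of highest and 5 of lowest level, up to 10 largest called changes each way, 2 per gene list by CPM and any called domain on a list, 3 on each side of the length threshold, and up to 5 called promoter rows each way. Some that the rule names are not reported here. For promoters, 37 rows of the mitochondrial chromosome and 1 row of extreme length were left out. Alternatives were DESeq2 1.42.0, other scalings and filters, shared regions alone, library sets, a replicate block, other length thresholds and leaving out each library. Scaling off the domains and 2 other denominators of the level ratio were added after seeing the data.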

Additional observations from a re-analysis of the deposited data

Results flagged for a closer look

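Among 142 groups of libraries checked for a sample far from the others, 10 had one, where chance gives about 1 in 20. WT replicate 1 was the lowest of its group for the share of region counts off chromosomes 6 and 11 that lay in the domains (25.7%) and for the log2 ratio of counts in domains of 20 kb or more to shorter ones (-0.502). It was also the highest at Cilp2 (68.2 CPM per kb). WT replicate 5 was low at the domain of Foxc2 and Foxl1 (51.9 CPM per kb) and at Pax1 (28.9). WT replicate 3 was low at Evx2 and Hoxd13 (46.2 CPM per kb), and WT replicate 2 was high at Sim2 (39.9). Among DKO libraries, replicate 4 was high at Zic1 and Zic4 (23.5 CPM per kb) and low at Kcnj4 (21.9), and replicate 1 was high at Gm29395 and Slc9a9 (11.7).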

How the results depend on the processing

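The median change in H3K27me3 stayed below 0 under every alternative run, from -0.29 in domains of 20 kb or more to -0.034 with the loess offset. That last value is smaller than the spread of the library medians within groups (SD 0.045). Falls numbered 42 with the loess offset, 84 in libraries with neither Old nor New, 80 in those with Old or New, 70 of 89 domains of 20 kb or more, and 304 of 1861 at 5 kb or more. Rises, 3 in the report, numbered 1 with DESeq2, no filter, scaling off chromosomes 6 and 11, scaling off the domains or WT replicates 1, 4 and 5 alone; 7 with library totals; 19 with the loess offset; 0 with neither Old nor New or at 20 kb; and 24 at 5 kb. The median was -0.12 with library totals, -0.034 with the loess offset, -0.236 when scaled off the domains, -0.29 at 20 kb and -0.104 at 5 kb. Over all regions the median moved too, from -0.015 in the report to 0.052 with library totals and -0.063 when scaled off the domains. The H3 median turned to 0.002 when scaled off chromosomes 6 and 11, and the interaction median was -0.098 with library totals. Promoter falls numbered 6 with no filter and 110 with a strict one, and promoter rises 2 with library totals, 4 with the loess offset and 2 with the strict filter. The loess offset turned the sign at Hoxc13/Hoxc12 (0.023), Nr2f1 (0.058), Pcdhga8 (0.014), Hoxd4/Hoxd3 (0.093), Hand2 (0.015), Tbx15 (0.005), Cilp2 (0.148) and 1 domain not named (0.131). Cilp2 also turned with library totals (0.002), with Old or New (0.005) and without WT replicate 1 (0.011). The cause of these shifts was not tested, beyond what each setting does by construction.

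The share difference was -1.97 points with neither Old nor New (exact permutation p = 0.2), -1.92 with Old or New (p = 0.333, exact) and -1.92 with WT replicates 1, 4 and 5 (exact p = 0.0571). The log2 ratio over 5 to 10 kb regions differed by -0.133, -0.0967 and -0.0946 in these sets. Groups this small cannot give lower values, so these p-values say nothing about stability. Leaving out each library gave 129 to 185 falls, 1 to 6 rises and medians of -0.207 to -0.168, H3 medians of -0.021 to 0.016 with 0 calls, and interaction medians of -0.198 to -0.151 with 0 calls. It gave 5 to 48 promoter falls, 0 to 4 promoter rises and promoter medians of -0.203 to -0.13. Shares then differed by -2.15 to -1.85 points, level ratios by -0.131 to -0.0995, and H3K27me3 over H3 by -0.152 to -0.126.

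Replicate numbers do not mark a shared origin in the labels, and same-numbered libraries did not deviate together (region correlations of -0.0278 to 0.0714). With the replicate block 183 domains fell and 2 rose with a median of -0.196, H3 had 0 calls and a median of -0.024, and promoters had 17 falls, 1 rise and a median of -0.164. Blocked differences were -2.04 points for the share (exact permutation p = 0.125) and -0.116 for the ratio. With 2 H3 libraries a group and 525847 to 736566 region counts, depth limits the interaction test at single domains.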
